A study of Mus musculus with 9 samples.

Results

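Transcripts of the proteasome, the main protein-degrading machine of the cell, were followed in mouse spleen B cells whose antigen receptor was engaged with an antibody to IgM. The gene set consists of every gene symbol on the array that begins with Psma, Psmb, Psmc, Psmd, Psme, Psmf or Psmg followed by a digit. This rule found 49 symbols on 86 probes, and the probe with the highest mean stands for each gene. Of these, 47 are proteasome genes by role and 2 match by name only. After the filter on dim probes, 42 of the 49 symbols were tested, among 14640 features in all. The gene of the proteasome inhibitor, Psmf1, is not in the probe annotation used here and was not analysed here.

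The proteasome has a barrel-shaped 20S core of stacked alpha and beta rings, in which 3 of the beta subunits carry the proteolytic sites. A 19S cap recognises ubiquitin-tagged proteins, removes the ubiquitin and unfolds them with a ring of ATPases, while other activators open the core without ubiquitin. Lymphocytes also make the immunoproteasome, in which Psmb8, Psmb9 and Psmb10 take the places of Psmb5, Psmb6 and Psmb7. This form is known for its part in making peptides for MHC class I molecules and for its induction by interferon.

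The promoters of the 3 immunosubunit genes are shown first, because these genes ran against most other members in the arrays. They are followed by that of Psmb5, the constitutive partner of Psmb8, and that of Psme3, the activator gene with the widest spread. Each sequence runs 5′ to 3′ on the strand of the gene, from 250 bases before to 50 bases after its start, as given by RefSeq for GRCm38.p6. The windows are chr17:34197945-34198244 (plus strand) for Psmb8, chr17:34187281-34187580 (minus) for Psmb9 and chr8:105938343-105938642 (minus) for Psmb10. They are chr14:54617946-54618245 (minus) for Psmb5 and chr11:101315963-101316262 (plus) for Psme3. Capitals mark matches to any of 8 short motifs searched on both strands.
Psmb8: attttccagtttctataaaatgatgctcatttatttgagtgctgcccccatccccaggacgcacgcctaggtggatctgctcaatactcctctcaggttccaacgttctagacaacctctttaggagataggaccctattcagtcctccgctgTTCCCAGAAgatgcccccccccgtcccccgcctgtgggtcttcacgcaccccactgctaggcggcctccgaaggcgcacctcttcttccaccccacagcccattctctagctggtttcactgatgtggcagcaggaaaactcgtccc
Psmb9: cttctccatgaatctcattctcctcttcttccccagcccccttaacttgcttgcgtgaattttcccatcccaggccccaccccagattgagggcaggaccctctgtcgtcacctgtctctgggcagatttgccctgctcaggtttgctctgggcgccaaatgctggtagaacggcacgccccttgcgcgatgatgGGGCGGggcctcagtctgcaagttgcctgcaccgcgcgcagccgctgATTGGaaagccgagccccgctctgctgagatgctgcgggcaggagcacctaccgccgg
Psmb10: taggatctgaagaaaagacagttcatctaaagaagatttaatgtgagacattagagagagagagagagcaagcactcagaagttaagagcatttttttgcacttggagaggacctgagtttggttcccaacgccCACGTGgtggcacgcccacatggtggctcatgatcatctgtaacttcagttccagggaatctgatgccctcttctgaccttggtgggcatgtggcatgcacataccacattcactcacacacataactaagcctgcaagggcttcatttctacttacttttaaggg
Psmb5: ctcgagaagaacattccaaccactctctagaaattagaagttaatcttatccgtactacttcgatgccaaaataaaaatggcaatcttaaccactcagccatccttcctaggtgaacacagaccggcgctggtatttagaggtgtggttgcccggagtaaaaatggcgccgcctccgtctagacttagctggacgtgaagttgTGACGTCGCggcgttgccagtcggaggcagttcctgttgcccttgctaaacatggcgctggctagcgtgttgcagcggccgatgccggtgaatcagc
Psme3: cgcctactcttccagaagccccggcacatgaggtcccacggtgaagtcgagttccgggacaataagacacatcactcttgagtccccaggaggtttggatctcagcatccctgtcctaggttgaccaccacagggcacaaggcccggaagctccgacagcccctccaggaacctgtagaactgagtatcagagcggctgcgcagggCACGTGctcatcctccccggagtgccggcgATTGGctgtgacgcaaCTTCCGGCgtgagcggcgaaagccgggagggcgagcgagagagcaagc
In these windows, Psmb8 holds the motif TTCNNNGAA at -97 to -89. Psmb9 holds the GC box GGGCGG at -55 to -50 and CCAAT on the reverse strand at -8 to -4, and its start lies 225 bases from that of Tap1, a peptide transporter gene. Psmb10 holds the E-box CACGTG at -116 to -111. Psmb5 holds TGACNNNGC, the type of site that the proteasome regulator NFE2L1 binds, at -47 to -39. Psme3 holds an E-box at -44 to -39, CCAAT on the reverse strand at -14 to -10 and the ETS form GCCGGAAG on the reverse strand at 3 to 10. Positions count from the gene start. No 2 matches overlapped within these 5 windows, though the motifs can share bases elsewhere.

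A RefSeq window was given for 39 of the proteasome genes by role. The GC box was in 23 of them (59%), against 38.2% of 27025 genes with a window. The core of the interferon-stimulated response element was in 5 (12.8% against 3.99%), namely Psmb3, Psmd4, Psmd9, Psme1 and Psmg4, and the ETS form in 4 (10.3% against 3.14%). TGACNNNGC was in 6 (15.4% against 14%), the E-box in 4 (10.3% against 8.09%), TTCNNNGAA in 3 (7.69% against 9.55%) and CCAAT in 14 (35.9% against 41.1%). The EGR form GCGTGGGCG was in 0 of 39, against 0.707% of genes. These are matches of letters and say nothing of whether a factor binds there.

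The cells were primary B lymphocytes from spleens of C57BL/6 mice aged 8 weeks, with no transgene or deletion named. The labels give 3 groups of 3 Illumina bead arrays each, for cells that had no antibody, 1 h of anti-IgM or 2 h of it. The antibody was a goat F(ab')2 fragment, which cannot engage Fc receptors, at 2.5 µg/ml. IL-4 at 5 ng/ml and CD40L at 200 ng/ml also appear in the protocol, without saying for which arrays, and the series text gives another duration, so the times here are those of the sample labels. The p-values set the differences between labels against the spread of samples within a label. As the labels do not separate mice or cultures, that spread may be technical. In such bulk samples a lower share of a cell type and less RNA per cell cannot be told apart.

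Several arrays went against their labels, which touches every result below. For Myc, a growth regulator gene switched on by receptor signalling, replicates 1, 2 and 3 gave intensities of 57, 798 and 70 in untreated cells. They gave 840, 583 and 816 after 1 h, and 876, 56.4 and 801 after 2 h. Untreated replicate 2 thus lay among the stimulated arrays and 2 h replicate 2 among the untreated ones. The array labelled 1 h replicate 2 also stood apart, with the lowest weight (0.261) when limma estimated array quality. The comparisons keep the labels, and the calls and main values without these arrays follow them. B cell identity was borne out by Cd79b, an antigen receptor chain gene, at 2450 to 9360 on the 9 arrays. The summed intensity of the 6 B cell markers tested was 11789 to 16582 in untreated cells, 6507 to 14418 at 1 h and 9419 to 15483 at 2 h. Of the other B cell markers, Ms4a1 lay at 109 to 391, Blk at 2425 to 3906, Pax5 at -1.19 to 15.9 and Cr2 was not above noise. The 4 T cell markers tested summed to 235 to 404, of which Cd8b1, a coreceptor gene of cytotoxic T cells, gave most, at 158 to 319. Thy1 lay at 12.9 to 73.2, Cd3d at 5.09 to 34.6 and Cd3e at -3.43 to 11.9. Erythroid markers summed to 8469, 8581 and 8554 on untreated replicate 3, 1 h replicate 3 and 2 h replicate 1, against 312 to 1106 elsewhere. The globin genes Hba-a1, Hbb-bs and Hbb-bt gave nearly all of this on those 3 arrays. Alas2 was dim (-5.24 to 21.4) and also highest there. Slc4a1 was dim too, highest on untreated replicate 3 (15.8) but lowest on 2 h replicate 1 (1.61). Summed macrophage and neutrophil markers were also highest on those 3 arrays, at 1449 to 2186 against 544 to 872 and at 3841 to 5323 against 729 to 1556. Lyz1 was the largest part of the macrophage sum, at 931 to 1420 on those 3 arrays and 355 to 493 elsewhere. Lyz2, Vcam1, C1qb and C1qc were also highest there. By contrast, Adgre1 was highest on 2 h replicate 2 (288), and Csf1r (33.6) and Spic (29.6) on 2 h replicate 3.

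Of the 49 symbols, 41 were above noise on all 9 arrays and 7 were too dim to test. Many of the 42 tested varied strongly between arrays of the same label. Others were steady, as the highest value of Psmc1 and Psme1 was 1.17 and 1.19 times the lowest. The remaining tested symbol was Psma8, an alpha subunit known from testis, which exceeded noise on 3 arrays. Its intensities were 6.51, 2.82 and -0.524 in untreated cells, -0.799, 6.02 and 4.19 after 1 h, and 7.14, 10.7 and 6.14 after 2 h, all near the noise. On 1 h replicate 2, 33 of the 42 genes lay above their own median over the 9 arrays (78.6%, against 43.6% of all features), with a median log2 deviation of 0.30. That array gave the highest value for 25 of 42 (59.5%, against 18.3%). On 1 h replicate 3, by contrast, 3 lay above and 34 below, and it gave the lowest value for 16 (38.1%, against 10.7%). It is one of the 3 arrays rich in globin transcripts. Of these, untreated replicate 3 and 2 h replicate 1 had 17 and 26 genes above their median. The part of other cells in this was not tested. Replicates 1 and 3 of the 2 h label had 26 and 25 genes above their median, and 2 h replicate 2 had 14.

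**Figure D1:**
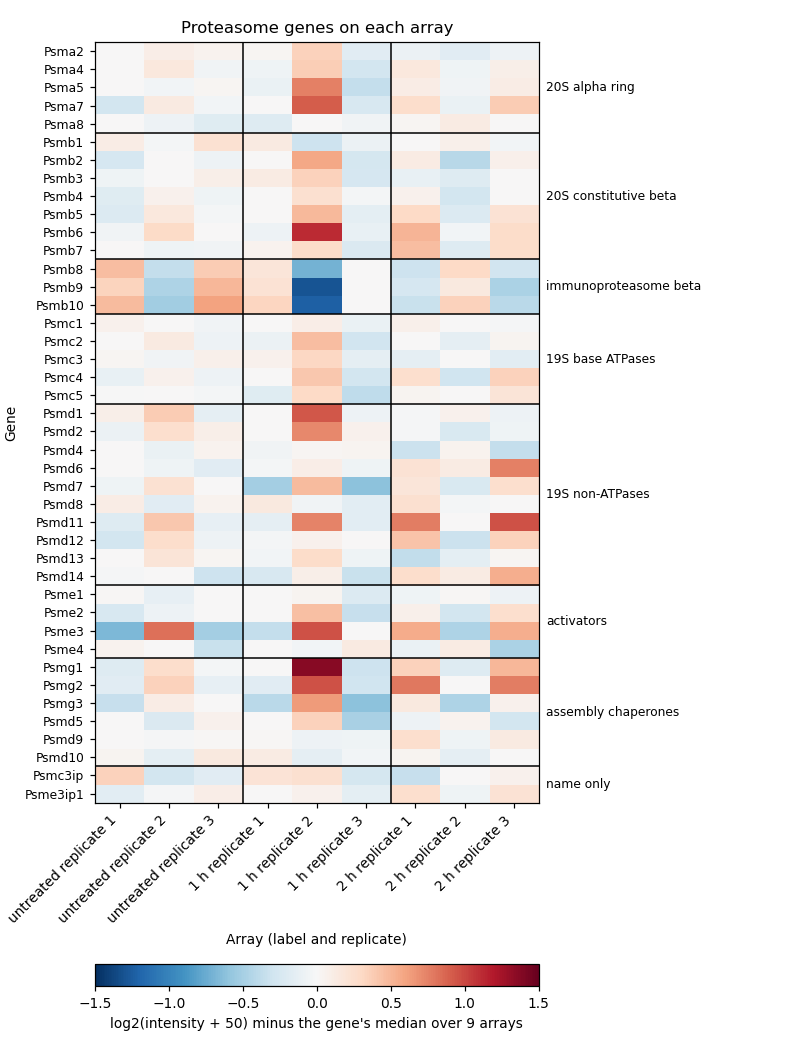
Heat map of the 42 tested genes (rows, by role) on the 9 arrays (columns), coloured by log2(intensity + 50) minus the gene's median over the arrays. Most genes are high on 1 h replicate 2 and low on 1 h replicate 3, and the 3 immunoproteasome genes run the other way on 1 h replicate 2.

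Among the 42 tested genes, the 3 immunoproteasome genes shared their 4 lowest arrays, as did many features outside the set. Psmb8, which encodes the chymotrypsin-like immunosubunit, had intensities of 2790, 1557 and 2645 in untreated cells, 2300, 1216 and 2019 after 1 h, and 1622, 2505 and 1648 after 2 h. Its 4 lowest arrays were untreated replicate 2, 1 h replicate 2 and 2 h replicates 1 and 3, so the labelled groups overlapped. Psmb9, the immunosubunit next to Tap1 in the MHC region, had 1125, 631 and 1276 in untreated cells, 1037, 332 and 885 after 1 h, and 738, 985 and 619 after 2 h. The same 4 arrays were lowest, and the highest value was 3.85 times the lowest. Psmb10, the trypsin-like immunosubunit, had 1141, 545 and 1236 in untreated cells, 1010, 315 and 801 after 1 h, and 627, 1038 and 595 after 2 h. Again these 4 arrays were lowest and the groups overlapped. A set of 4 arrays picked from Psmb8 in this way was the lowest for 3 of the 42 genes, these 3, of which Psmb8 matches by construction. It was the lowest for 12.8% of all features as well, so the order was not particular to these genes.

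Group means followed from this split within labels. For Psmb8 they were 2331 ± 674 in untreated cells, 1845 ± 563 at 1 h and 1925 ± 502 at 2 h (SD, n = 3 arrays). The log2 difference of 1 h from untreated was -0.33 ± 0.31 (SE) for Psmb8, -0.48 ± 0.42 for Psmb9 and -0.49 ± 0.45 for Psmb10, the 3 lowest of the 42, each with an adjusted p of 1 in limma. At 2 h against untreated they were -0.25 ± 0.31, -0.32 ± 0.42 and -0.31 ± 0.45, again the 3 lowest, with limma's adjusted p of 0.908, 0.911 and 0.911. Each difference was close to or below its standard error, so no change was shown. Without 1 h replicate 2, the 1 h differences were -0.07, -0.02 and -0.03, and without untreated replicate 2 they were -0.59, -0.78 and -0.84. Their size therefore depended on these 2 arrays, which moved it in opposite directions. Leaving out 1 array moved the 2 h differences as well, to between -0.52 and -0.10 for Psmb8, -0.61 and -0.13 for Psmb9 and -0.66 and -0.11 for Psmb10, each largest without untreated replicate 2. They were smallest without untreated replicate 1 for Psmb8 and without untreated replicate 3 for Psmb9 and Psmb10.

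The other kept probes of these genes had the same order of arrays in outline. The other Psmb8 probe had 182, 127 and 230 in untreated cells, 207, 99.6 and 152 after 1 h, and 132, 204 and 153 after 2 h. For the other Psmb10 probe the values were 674, 423 and 794, then 697, 215 and 578, then 456, 623 and 408. Both were lowest on 1 h replicate 2. The summed B cell markers were also lowest on the 4 arrays that were lowest for Psmb8, at 6507, 9419, 10709 and 11789 against 14391 to 16582 on the other 5. Cd79b weighed most in this sum, at 2450 to 4943 against 6131 to 9360, and Cd22 and Ms4a1 were also lowest on these 4. The markers were not of 1 mind, as Blk had its highest value on untreated replicate 2 (3906) and Fcer2a had 3117 there. The part of B cell content in the result was not tested. Psmb11, the thymus-specific subunit, had -4.58 to 7.32 and was not tested.

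**Figure D2:**
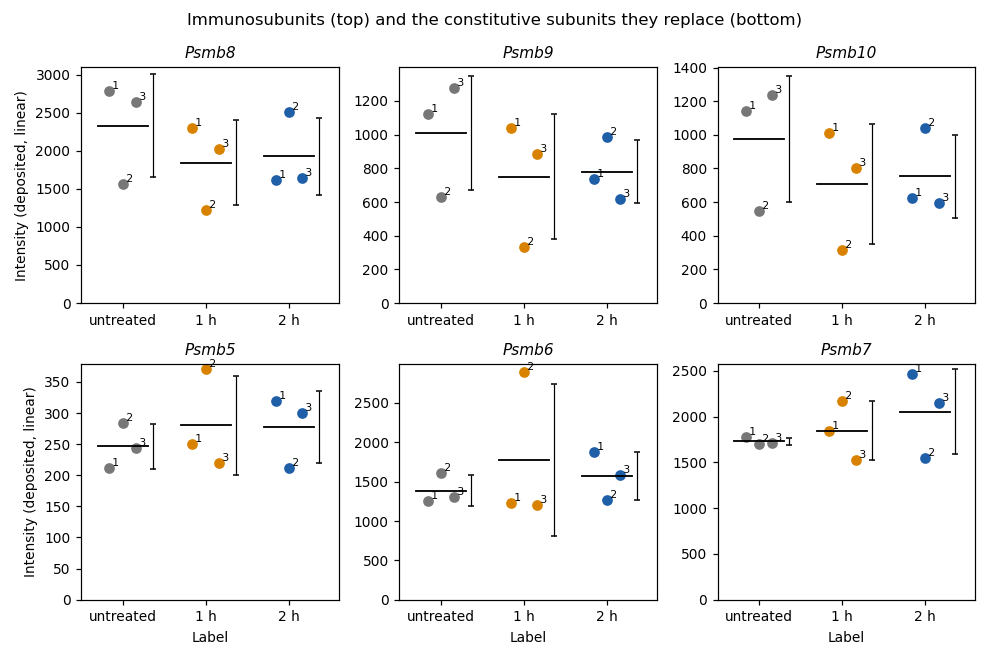
Deposited intensity (vertical axis, linear from 0) of Psmb8, Psmb9 and Psmb10 (top) and of Psmb5, Psmb6 and Psmb7 (bottom) by label; points are arrays numbered by replicate, horizontal lines are means and vertical bars span the mean ± SD of 3 arrays. In the top row the array labelled 1 h replicate 2 is lowest (1216, 332 and 315) and in the bottom left and middle panels it is highest (370 and 2888).

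The constitutive subunits that these replace went the other way on several arrays. Psmb5, the chymotrypsin-like constitutive subunit, had 211, 284 and 244 in untreated cells, 250, 370 and 220 after 1 h, and 320, 211 and 300 after 2 h. Its 4 highest arrays were the 4 lowest of Psmb8. Psmb6, the caspase-like subunit, had 1255, 1606 and 1300 in untreated cells, 1229, 2888 and 1202 after 1 h, and 1874, 1261 and 1587 after 2 h. Here too these 4 arrays were highest, and 1 h replicate 2 stood well above the rest. Psmb7, the trypsin-like subunit, had 1775, 1704 and 1708 in untreated cells, 1843, 2167 and 1521 after 1 h, and 2468, 1548 and 2148 after 2 h. Its untreated arrays were close together and lay within the range of the other labels. The log2 differences of 2 h from untreated were 0.13 ± 0.20, 0.17 ± 0.32 and 0.22 ± 0.18 for Psmb5, Psmb6 and Psmb7, with limma's adjusted p of 0.913, 0.927 and 0.908. Without replicate 2 of both labels they were 0.38, 0.42 and 0.39.

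The exchange of subunits was read as the log2 value of the immunosubunit minus that of its partner on the same array, compared between labels only. Psmb8 minus Psmb5 was 3.44, 2.27 and 3.20 in untreated cells, 2.97, 1.59 and 2.94 after 1 h, and 2.18, 3.29 and 2.28 after 2 h. For Psmb9 minus Psmb6 it was -0.15, -1.28 and -0.03, then -0.24, -2.94 and -0.42, then -1.29, -0.34 and -1.29. For Psmb10 minus Psmb7 it was -0.62, -1.56 and -0.45, then -0.84, -2.60 and -0.88, then -1.89, -0.55 and -1.77. In all 3 pairs the same 4 arrays were lowest, and the labelled groups overlapped. The mean change at 1 h was -0.47, -0.71 and -0.57 for the 3 pairs (exact permutation test, two-sided, p = 0.5 for each, adjusted p = 0.9 over 9 tests). At 2 h against untreated it was -0.39, -0.49 and -0.53 (exact p = 0.6, 0.2 and 0.3, adjusted p = 0.9 for each). Without untreated replicate 2 and 2 h replicate 2 these became -1.09, -1.20 and -1.30, with no overlap of the 4 arrays left. The exact permutation p was 0.333, the smallest that 2 against 2 can give. The 2 arrays left out were picked from these same data, so the lack of overlap is only a description. The share of all features so separated was not counted. Leaving out 1 array gave -0.74 to -0.15, -0.88 to -0.26 and -0.96 to -0.29. Between 2 h and 1 h it was 0.08, 0.23 and 0.04 (exact p = 1, 0.9 and 1). With 3 arrays against 3, this test cannot give a p below 0.1.

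Of the 8 alpha ring genes, 5 were tested, and their levels moved little between labels. Psma7, an alpha ring subunit, had 1369, 1824 and 1612 in untreated cells, 1657, 3151 and 1397 after 1 h, and 1988, 1537 and 2165 after 2 h. The value on 1 h replicate 2 stood far above the others, and the 1 h difference of 0.28 ± 0.29 (log2, limma's adjusted p = 1) was -0.06 without it. Psma5 had 4974 on that array and 2256 to 3156 on the other 8. Psma2 had 5634, 6058 and 5828 untreated against 5281, 5000 and 5338 after 2 h, groups that did not overlap, with a log2 difference of -0.16 ± 0.13 (limma's adjusted p = 0.908). Probes for Psma1, Psma3 and Psma6, which are parts of every core, were not above noise on any array, with values of -8.61 to 6.14, so these probes report nothing on their genes.

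Among the constitutive beta genes, all 7 were tested. Psmb1 had the smallest p across the 3 labels, with 2662, 2406 and 2900 in untreated cells, 2707, 1966 and 2300 after 1 h, and 2458, 2599 and 2392 after 2 h. Its lowest array was 1 h replicate 2, and the labels overlapped (limma's F-test, adjusted p = 0.977). The highest value was 1.44 to 2.4 times the lowest across the 7 genes, least for Psmb4 and most for Psmb6.

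The 19S cap held the members nearest to a difference by label. Psmd14, the deubiquitinase of the cap, had 484, 490 and 386 in untreated cells, 408, 526 and 381 after 1 h, and 596, 538 and 741 after 2 h. Every 2 h array lay above all 6 others, including 2 h replicate 2, which otherwise lay with the untreated arrays. Its log2 difference at 2 h was 0.42 ± 0.16 from untreated (limma's adjusted p = 0.908) and 0.47 ± 0.16 from 1 h (adjusted p = 0.62). The other Psmd14 probe had 356, 363 and 309 in untreated cells, 309, 411 and 288 after 1 h, and 575, 422 and 682 after 2 h. It too had every 2 h array above the rest. Without the 3 arrays labelled replicate 2, the differences of the brighter probe were 0.57 and 0.69.

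Psmd6, a subunit of the lid part of the cap, was dimmer, with 42.3, 37.9 and 32.1 in untreated cells, 40.5, 48.9 and 37.7 after 1 h, and 57.7, 50.3 and 105 after 2 h. The 2 h arrays again lay above all others, though 2 of them by little, and the difference from untreated was 0.44 ± 0.16 on the log2(intensity + 50) scale, which understates the change of dim genes (limma's adjusted p = 0.908). Without 2 h replicate 3 it was 0.25. A dimmer Psmd6 probe, above noise on 7 arrays, had 8.03, 3.6 and 8.67 in untreated cells and 8.18, 6.38 and 6.6 after 1 h. After 2 h it had 23.1, 21.8 and 25.3, so every 2 h array again lay above the rest. Psmd11, a lid scaffold subunit, had 140, 238 and 149 in untreated cells, 148, 314 and 144 after 1 h, and 319, 167 and 371 after 2 h. Its highest 4 arrays were 2 h replicates 1 and 3, 1 h replicate 2 and untreated replicate 2, and its difference of 0.54 ± 0.33 at 2 h was the largest of the 42 (limma's adjusted p = 0.908).

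Other cap genes were lower at 2 h than at 1 h, without passing the test. Psmd2, a large scaffold of the cap base, had 443, 572 and 506 in untreated cells, 473, 809 and 500 after 1 h, and 468, 397 and 453 after 2 h. All 2 h arrays lay below the 1 h arrays, by a little for 2 of them, at -0.36 ± 0.19 on the log2 scale (limma's adjusted p = 0.797), or -0.14 without 1 h replicate 2. Psmd1, the other base scaffold, had 1902, 2351 and 1636 in untreated cells, 1791, 3454 and 1694 after 1 h, and 1760, 1871 and 1686 after 2 h. The 1 h label was spread by 1 high array, and the 2 h difference from 1 h of -0.30 ± 0.26 (limma's adjusted p = 0.942) became 0.02 without it. Psmd13, a lid subunit, had 1436, 1640 and 1466 in untreated cells, 1392, 1750 and 1374 after 1 h, and 1102, 1285 and 1469 after 2 h. Its 2 h arrays reached into the range of both other labels (-0.22 ± 0.14 from 1 h, limma's adjusted p = 0.87).

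Of the 6 ATPases of the cap base, 5 were tested and their differences were small. Psmc3, with the smallest p of these, had 649, 613 and 676 in untreated cells, 663, 800 and 579 after 1 h, and 578, 636 and 565 after 2 h. The labels overlapped, and limma's F-test gave an adjusted p of 0.977. Psmc1 was the steadiest, at 540 to 631 on the 9 arrays. Psmc6 (-0.827 to 16.8) and the cap gene Psmd3 (-0.864 to 8.72) were not tested.

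Among the activators, Psme3 varied most and Psme1 least. Psme3 encodes PA28 gamma, a nuclear activator of ubiquitin-independent degradation. It had 372, 1137 and 421 in untreated cells, 471, 1254 and 620 after 1 h, and 940, 438 and 921 after 2 h. The 4 highest arrays were those that were lowest for Psmb8, and the group means of 643 ± 428, 781 ± 416 and 766 ± 285 (SD, n = 3) overlapped widely. Its log2 difference was 0.32 ± 0.50 at 1 h and 0.33 ± 0.50 at 2 h (limma's adjusted p = 1 and 0.912).

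Psme1 and Psme2 encode the paired PA28 alpha and beta subunits, an interferon-inducible cap often found with the immunoproteasome. Psme1 had 2807, 2536 and 2767 in untreated cells, 2763, 2842 and 2381 after 1 h, and 2638, 2809 and 2614 after 2 h, a spread of 1.19 times over all arrays. It did not share the low values of the immunosubunits on 1 h replicate 2. Psme2 had 222, 254 and 271 in untreated cells, 273, 387 and 202 after 1 h, and 289, 215 and 330 after 2 h, and was highest on that array. Psme4, the large nuclear activator PA200, had 795, 775 and 602 in untreated cells, 769, 744 and 851 after 1 h, and 716, 842 and 539 after 2 h, with overlapping labels (limma's F-test, adjusted p = 0.977).

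Among the assembly chaperone genes, those that act on the alpha ring varied most between arrays. Psmg1 and Psmg2 encode the pair that starts the alpha ring. Psmg1 had 156, 232 and 181 in untreated cells, 185, 557 and 139 after 1 h, and 250, 156 and 282 after 2 h. Its value on 1 h replicate 2 was 3.99 times that on 1 h replicate 3, so the 1 h difference of 0.34 ± 0.41 (log2, limma's adjusted p = 1) was -0.17 without replicate 2. Psmg2 had 226, 344 and 237 in untreated cells, 226, 551 and 202 after 1 h, and 487, 261 and 482 after 2 h. The 2 h label overlapped the untreated one through its replicate 2, and 1 h replicate 2 lay above every 2 h array. The difference of 2 h from untreated was 0.50 ± 0.36 (log2, limma's adjusted p = 0.908), or 0.92 without replicate 2 of both labels. Psmg3, which also works on the alpha ring, had 216, 314 and 288 in untreated cells, 206, 474 and 171 after 1 h, and 326, 196 and 306 after 2 h. All 3 of these genes had as their highest arrays the 4 that were lowest for Psmb8.

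The chaperones of the cap base did not share that order. Psmd9 had 28.1, 27.2 and 29.4 in untreated cells, 29, 23.8 and 25.1 after 1 h, and 42.8, 24.9 and 35.3 after 2 h, with 2 h replicates 1 and 3 above the rest (limma's F-test, adjusted p = 0.977). Psmd10 ranged from 602 to 750 and Psmd5 from 43.5 to 117. Psmg4, at -4.6 to 5.35, was not tested. In all, 13 of the 42 genes had the 4 arrays that were lowest for Psmb8 as their 4 highest, against 10.5% of all features. Beside those already named, they were Psma4, Psmb2, Psmc4, Psmd7 and Psmd12. The array set was chosen after its values were seen, and no test was made.

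**Figure D3:**
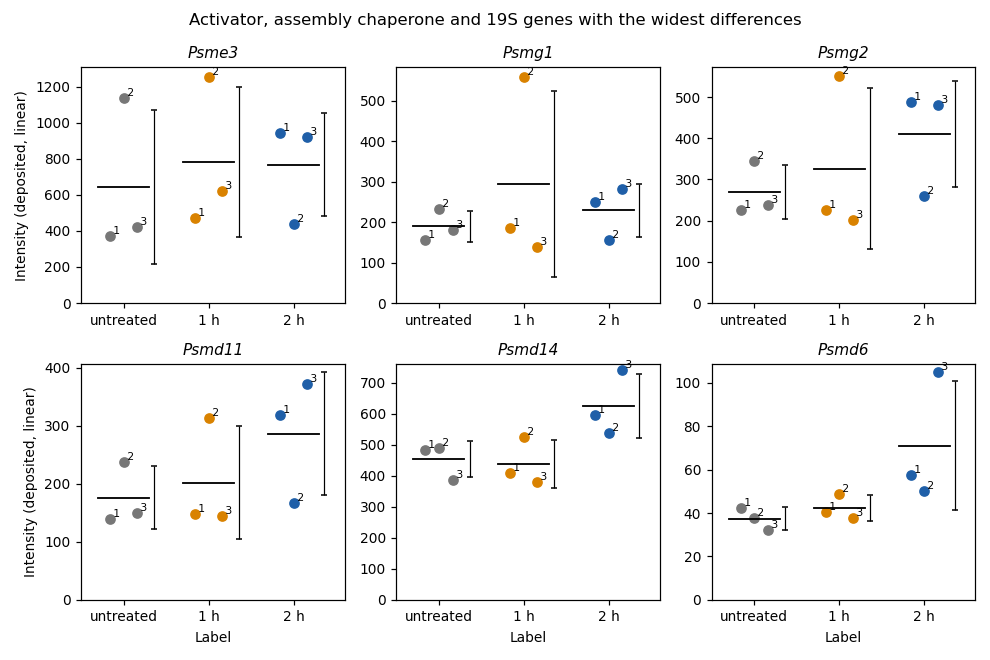
Deposited intensity (vertical axis, linear from 0) of Psme3, Psmg1, Psmg2, Psmd11, Psmd14 and Psmd6 by label; points are arrays numbered by replicate, horizontal lines are means and vertical bars span the mean ± SD of 3 arrays. In every panel 2 h replicate 2 is the lowest 2 h array. For Psmd14 and Psmd6 every 2 h array still lies above all others, though 2 h replicate 2 only narrowly (538 against 526 and 50.3 against 48.9 on 1 h replicate 2).

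The 2 genes that match the rule by name only are not proteasome subunits. Psme3ip1 encodes a binding partner of PA28 gamma and had 592, 657 and 715 in untreated cells, 666, 702 and 594 after 1 h, and 800, 637 and 782 after 2 h. Its 2 h replicates 1 and 3 were highest (limma's F-test, adjusted p = 0.977). Psmc3ip, a factor of meiotic recombination, had 98.7 to 192.

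By label, no proteasome gene passed the test at 1 h of anti-IgM. Of the 42, 26 were higher and 16 lower, with a median log2 difference of 0.03 (range -0.49 to 0.34), beside -0.005 over all features. This split rested on opposing arrays: 6 were higher and 36 lower without 1 h replicate 2, and 34 and 8 without 1 h replicate 3. It was 10 and 32 without the 3 arrays labelled replicate 2, and 16 and 26 with array weights. The immunosubunits were lower for 3 of 3 tested (median -0.48) and the constitutive beta genes higher for 6 of 7 (median 0.13). None of the 42 passed limma at an adjusted p under 0.05, as in 0% of features, nor at an unadjusted p under 0.05, where 1.29% of features did. The 1 h arrays lay wholly above the untreated arrays for 0 of 42, against 2.64% of features, and wholly below for 0, against 2.36%.

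At 2 h against untreated, 24 were higher and 18 lower, with a median of 0.02 (range -0.32 to 0.54) beside -0.007 over all features. The split was 20 and 22 without 2 h replicate 1, and 26 and 16 without untreated replicate 2 and 2 h replicate 2. None passed the adjusted threshold in limma (0% of features). Psmd14 and Psmd6, 2 of 42, passed unadjusted, near the 4.98% of all features. The 2 h arrays lay wholly above the untreated ones for 3 genes, Psmc5, Psmd14 and Psmd6, against 6.8% of features. They lay wholly below for Psma2, against 4.38%.

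Between 2 h and 1 h, 22 were higher and 20 lower, with a median of 0.02 (range -0.36 to 0.47) beside -0.006. It was 28 and 14 without 1 h replicate 2, 16 and 26 without 1 h replicate 3, and 29 and 13 without the 3 arrays labelled replicate 2. None passed the adjusted threshold in limma (0% of features), and Psmd14 alone passed unadjusted, against 6.84% of features. The 2 h arrays lay wholly above the 1 h arrays for Psma8, Psmd14 and Psmd6 (6.93% of features) and wholly below for Psmd2 (4.43%). Psma8 lay near noise, with 6.02 on 1 h replicate 2 against 6.14 on 2 h replicate 3, so its place here carries no weight. Over the 3 labels together, limma's F-test called 0 of 42 after adjustment (0% of features) and Psmd14 alone before it (4.36%). The counts of proteasome genes by label were thus close to those of all features.

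**Figure D4:**
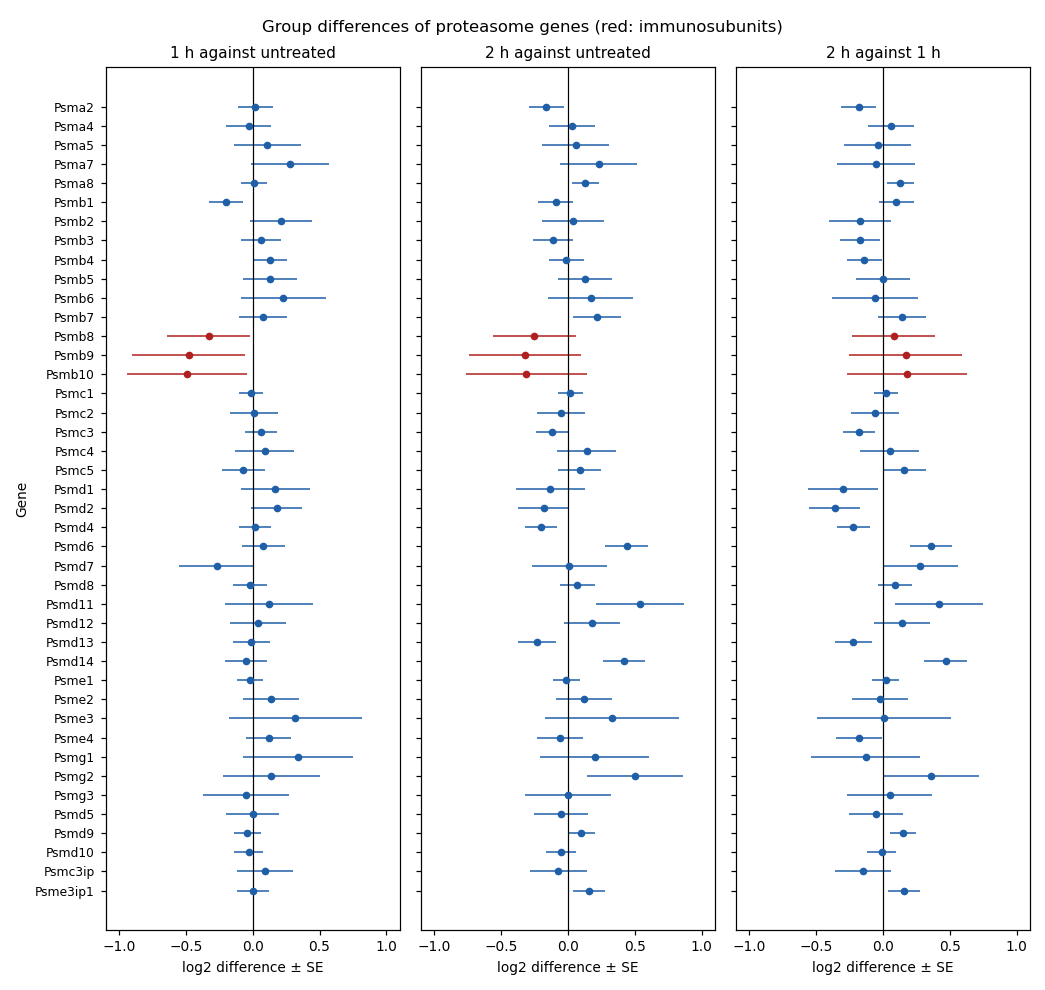
Log2 difference with limma's standard error (horizontal axis) of the 42 tested genes (vertical axis) in the 3 comparisons; red points are the immunosubunits and the vertical line is 0. The immunosubunits are lowest at 1 h (-0.33 to -0.49) and at 2 h against untreated, and Psmd14 and Psmd6 are on the higher side in both 2 h comparisons.

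The picture differed when the arrays that go against their labels were left out, and calls then appeared. Such arrays were picked from these same values, so these p-values are too small and the calls are descriptions. Without untreated replicate 2 and 2 h replicate 2, only the lid gene Psmd12 passed limma at 2 h against untreated (0.57 ± 0.12 log2, adjusted p = 0.0357), which is 2.38% of the 42 against 3.8% of features. No gene was called lower, against 5.22%. Psmd12 had 717, 1059 and 821 untreated and 1192, 689 and 1129 after 2 h, so that its 2 labels exchanged places at replicate 2. In this setting the immunosubunits had -0.72 for Psmb8, -0.78 for Psmb9 and -0.90 for Psmb10 at 2 h, with limma's adjusted p of 0.159, 0.338 and 0.263.

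Without all 3 arrays labelled replicate 2, 12 genes were called higher at 2 h than untreated (28.6%, against 15.7% of features) and 4 lower (9.52%, against 19%). Those lower were Psmb8 (-0.72 ± 0.12), Psmb9 (-0.78 ± 0.14), Psmb10 (-0.90 ± 0.13) and Psmd4, a ubiquitin receptor of the cap (-0.37 ± 0.11), with limma's adjusted p from 0.00023 to 0.0249. Psmd4 had 2712, 2531 and 2818 in untreated cells, 2627, 2769 and 2789 after 1 h, and 2155, 2799 and 2106 after 2 h, so that 2 h replicates 1 and 3 lay below all others. Those higher were Psme3 (1.14 ± 0.14), Psmd11 (1.02 ± 0.12), Psmg2 (0.92 ± 0.12), Psmd12, Psmd14, Psmd6, Psmg1, Psma7, Psmb5, Psmb6, Psmb7 and Psmc4. The 3 constitutive active-site genes were thus on the higher side and the 3 immunosubunits on the lower. Other named genes missed the threshold, among them Psma2 (-0.11), Psmb1 (-0.19), Psmc3 (-0.20), Psmd13 (-0.18), Psme1 (-0.08), Psme2 (0.28), Psme4 (-0.14) and Psmg3 (0.29). On the 4 arrays this rests on for Psme3, the intensities were 372 and 421 untreated against 940 and 921 after 2 h.

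Against 1 h in the same setting, 14 genes were called higher (33.3%, against 12.1% of features) and 4 lower (9.52%, against 13.7%). The 4 lower were again the immunosubunits and Psmd4, led by Psmb10 (-0.52 ± 0.13, limma's adjusted p = 0.0125). The higher ones were led by Psmg2 (1.02 ± 0.12), Psmd11 (1.01 ± 0.12) and Psmd7 (0.77 ± 0.12). The cap scaffolds Psmd2 and Psmd1, lower by label, had -0.07 and -0.02. At 1 h against untreated, Psmb8, Psmb9 and Psmb10 had -0.33, -0.31 and -0.38 and Psme3 0.41, with no call. None of the 42 was called higher, against 3.95% of features, and Psmd7 alone was called lower (-0.53 ± 0.12, limma's adjusted p = 0.0157; 2.38% against 3.39%). Psmd7, a partner of Psmd14 in the lid, had 851 and 889 in untreated cells, 609 and 565 after 1 h, and 1013 and 1066 after 2 h on these 6 arrays. A dimmer Psmd7 probe went the other way at 1 h, from 44.6 and 43.9 to 53.7 and 70.8, while a further one had 338 and 353 against 292 and 250. When limma instead weighted all 9 arrays by their estimated quality, 10 genes were called higher at 2 h than untreated (23.8%, against 15% of features) and 4 lower (9.52%, against 18.6%).

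**Figure D5:**
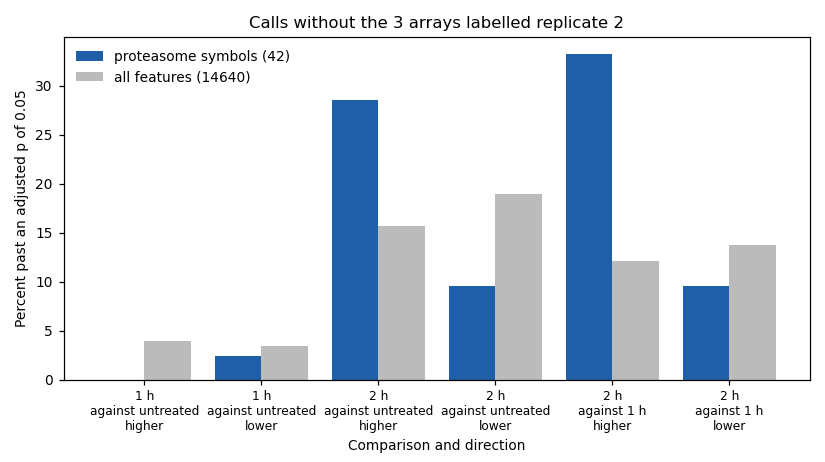
Percent of the 42 proteasome symbols (blue) and of all 14640 features (grey) past an adjusted p of 0.05 in limma without the 3 arrays labelled replicate 2, by comparison and direction (vertical axis from 0). The proteasome share is above the share of all features for higher calls at 2 h (28.6% against 15.7%, and 33.3% against 12.1% for 2 h against 1 h) and below it for lower calls.

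Genes that work with the proteasome gave no call on the labels either. Of 34 listed partners, such as ubiquitin receptors, deubiquitinases and regulators, 20 were on the array and 18 tested, and limma called 0. They were higher for 14 at 1 h (median 0.09) and for 11 at 2 h (median 0.06). Sem1, a small cap subunit with the smallest F-test p of the list (limma, adjusted p = 0.977), had 2922, 3000 and 3067 in untreated cells, 3012, 2992 and 2724 after 1 h, and 3570, 3316 and 4029 after 2 h. Its 2 h arrays lay above all others, at 0.27 ± 0.10 from untreated (limma's adjusted p = 0.908). Of all features, 6.8% had every 2 h array above the untreated ones and 6.93% had every 2 h array above the 1 h ones. Ecpas, a proteasome-binding scaffold, had the next smallest. Nfe2l1, a transcription factor that drives proteasome genes, had 345, 749 and 312 in untreated cells, 478, 907 and 634 after 1 h, and 636, 332 and 574 after 2 h. It was named after its values were seen, and its 3 lowest arrays were untreated replicates 1 and 3 and 2 h replicate 2.

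Of 11 genes of peptide loading on MHC class I, 10 were tested and 0 called, with 5 higher at 1 h and 3 after 2 h against untreated. H2-K1, a class I heavy chain gene, had 1689, 1255 and 1920 in untreated cells, 1508, 1235 and 1688 after 1 h, and 2232, 2351 and 2505 after 2 h. Its 2 h arrays lay above all others, at log2 differences of 0.55 ± 0.17 from untreated and 0.67 ± 0.17 from 1 h (limma's adjusted p = 0.893 and 0.473). H2-K1 was named for the smallest F-test p of its list. Of all features, 6.8% lay wholly above untreated at 2 h and 6.93% wholly above 1 h. Nlrc5, the class I transactivator gene, had -0.63 ± 0.17 at 2 h against 1 h (limma's adjusted p = 0.485). Tap1, named as the neighbour of Psmb9, had 403, 228 and 470 in untreated cells, 408, 138 and 423 after 1 h, and 222, 448 and 173 after 2 h. Its 4 lowest arrays were those of Psmb9. Of the 10 interferon response genes tested, limma called 0, and 7 were lower at 1 h and 6 after 2 h than untreated. The smallest F-test p-values of that list were those of the kinase genes Jak1 and Jak2 (limma, adjusted p = 0.977 for each). Both were lower at 1 h and higher at 2 h than untreated. The log2 differences were -0.11 ± 0.22 and 0.61 ± 0.22 for Jak1, and -0.48 ± 0.26 and 0.25 ± 0.26 for Jak2.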

How the data were processed

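RNA of 9 samples was measured on Illumina bead arrays. The deposited table gives a linear intensity per probe for 45281 probes; how the authors computed it is not stated in the labels, and 31.8% of intensities were below 0. Another table, not normalized, was left aside because its 9 value columns match no label, so detection p-values and neqc could not be applied. Probes above noise (median threshold 6.44, from values below 0 mirrored around 0, upper 0.05 tail) on at least 3 arrays were kept (20983), and the brightest per symbol was taken. Symbols came from the platform annotation (34885 probes with 1, 18 with several, 10378 with none).

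With limma 3.58.1 in R 4.3.3, a mean per label was fitted to log2(intensity + 50) of all 14640 features, with Benjamini-Hochberg adjustment over them and 6 residual degrees of freedom. Standard errors are limma's moderated ones. The immunosubunit pairs were compared by an exact permutation test. The scripts were tested on simulated data. Members, lists and rules were chosen with earlier results of these data known. Values on every array were given for Psmb5 to Psmb10 and Psme1 to Psme3, for the smallest F-test p per structural class, and for the 3 highest and 3 lowest differences per comparison. Of the partner, class I and interferon lists, the 2 genes with the smallest F-test p were named. Other genes were named after their values were seen.

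Samples with the same replicate number did not deviate together in every pair (r = 0.572 for untreated and 1 h replicate 1, -0.712 for untreated and 2 h replicate 1). The arrays that go against their labels weigh on these correlations, so they cannot show whether same-numbered samples belong together. The numbers were not used as pairs in the main fit. Alternatives covered the offset, floor, normalization, dim-probe filter, choice of probe, variance model, array weights, replicate block, the arrays in the fit and leaving out arrays. Precision is limited by the number of arrays.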

Additional observations from a re-analysis of the deposited data

How the results depend on the processing

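Of 266 values of named genes under settings other than leaving out 1 array, 248 kept their direction and side of the threshold, 17 kept their direction and passed it, and 1 changed sign. That was Psmg1 at 1 h, at -0.05 without the 3 arrays labelled replicate 2. Some settings, such as the replicate block or another variance model, leave the difference itself unchanged, so direction could not change under them. Without those 3 arrays, 1 gene of 42 passed at 1 h, on the lower side (2.38%, against 3.39% of features). At 2 h against untreated 16 passed, 12 higher (28.6%, against 15.7%) and 4 lower (9.52%, against 19%). At 2 h against 1 h 18 passed, 14 higher (33.3%, against 12.1%) and 4 lower (9.52%, against 13.7%), and the median was 0.21. With array weights, 14 passed at 2 h against untreated, 10 higher (23.8%, against 15%) and 4 lower (9.52%, against 18.6%). The F-test passed 17 without those 3 arrays and 8 with array weights, but the share of all features was not counted. Without untreated replicate 2 and 2 h replicate 2, 1 passed at 2 h against untreated, on the higher side (2.38%, against 3.8%). For the change from 1 h to 2 h, Psmb8 minus Psmb5, Psmb9 minus Psmb6 and Psmb10 minus Psmb7 were -0.73, -0.96 and -0.97 without the 3 arrays and -0.27, -0.09 and -0.39 without the 2. The arrays left out are the construction of these settings, and no other cause was tested.

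Leaving out 1 array at a time, 0 genes were called in every comparison. Ranges that crossed 0 were, at 1 h, -0.06 to 0.51 for Psma7, -0.06 to 0.79 for Psme3, -0.17 to 0.67 for Psmg1, -0.91 to 0.02 for Psmb10 minus Psmb7 and -1.20 to 0.16 for Psmb9 minus Psmb6. At 2 h against 1 h they were -0.48 to 0.02 for Psmd1, -0.37 to 0.32 for Psmb8 minus Psmb5, -0.64 to 0.71 for Psmb9 minus Psmb6 and -0.54 to 0.34 for Psmb10 minus Psmb7. The members' median ranged from -0.06 to 0.15 at 1 h, -0.01 to 0.11 at 2 h against untreated and -0.10 to 0.15 at 2 h against 1 h. With the replicate number as a block, 0 genes were called, Psmd14 at 2 h against untreated was 0.42 ± 0.18 (limma's adjusted p = 0.944), and the block changed no other call.

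Where a gene had several kept probes (23 genes), their signs differed in 6 genes at 1 h, in 4 at 2 h against untreated and in 10 at 2 h against 1 h, Psmb7 and Psmd1 among the last. Probes near noise, such as those of Psma1 or Psma8, limit what can be said of those genes.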
